A study of Mus musculus with 12 samples.

Results

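Srf, Elk1, Elk3 and Elk4 were followed in RNA-seq counts from splenic resting B cells, as 4 genes of the 37991 in the count table. These genes encode serum response factor (SRF) and its ternary complex factors (TCFs). They were chosen by name, and Elk3 was picked because its difference between genotypes changed sign on activation. For Elk3 the genotype differences, the activation change within each genotype and the interaction are therefore descriptions with no test, and only its activation change averaged over genotypes was tested. All 4 genes passed the filter on low counts, which left 13538 genes.

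The mice were 8 weeks old, and all 4 groups carried the CD23-iCre transgene, which is driven by the Cd23 promoter and is first expressed at the transitional B cell stage. Runx1 c-k/o mice also carried floxed Runx1 alleles from which exon 4 is deleted, and the controls, called Cre-only, did not. Cells of each genotype were taken at rest (0 h) or after 3 h with anti-IgM + IL-4, which engages the B cell receptor and the IL-4 receptor. No group was kept for 3 h without these stimuli. What is called activation here therefore cannot be told apart from effects of 3 h in culture. Each of the 4 groups held 3 samples, 12 in all.

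SRF is a transcription factor that binds the CArG box, and it acts with 2 families of partners. The TCFs, which are ETS-domain proteins, join SRF at early response genes and are phosphorylated by MAP kinases such as ERK, downstream of Ras. The myocardin-related factors Mrtfa and Mrtfb join SRF at genes of the actin cytoskeleton and are held back by monomeric actin. Elk1 and Elk4 (also called Sap-1) are known mainly as activators, and Elk3 (also called Net) is known as a repressor that Ras-ERK signaling can turn into an activator.

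On mm9, Srf lies on chromosome 17 from 46683788 to 46693111 on the minus strand. Elk1 lies on chromosome X from 20510521 to 20527734 on the minus strand, and 76 of its exon bases are shared with Uxt on the same strand. Elk3 lies on chromosome 10 from 92710159 to 92773880 on the minus strand, and 316 of its 4550 exon bases, 6.95%, overlap exons of Cdk17 on the other strand. Elk4 lies on chromosome 1 from 133904184 to 133929189 on the plus strand, and 84 of its exon bases overlap Mfsd4 on the other strand. All 4 are protein-coding, and the counts cover all of their exons together. The libraries were stranded but the strand setting of the counting is not given in the sources used here, so reads from overlapping exons may be shared.

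The 250 bases before the RefSeq start of transcription are shown for Srf, because Srf is itself a target of SRF, and for Elk3, because of its pattern across genotypes. Both are written 5′ to 3′ on the gene's own strand, with RefSeq sequences matched exactly to mm9 at chr17:46693112-46693361 and chr10:92773905-92774154. Capitals mark CArG boxes, the ETS motif written as CCGGAA, and the Runx motif written as TGTGGT or TGCGGT, each searched on both strands. Shorter forms of the ETS motif were not searched.
Srf: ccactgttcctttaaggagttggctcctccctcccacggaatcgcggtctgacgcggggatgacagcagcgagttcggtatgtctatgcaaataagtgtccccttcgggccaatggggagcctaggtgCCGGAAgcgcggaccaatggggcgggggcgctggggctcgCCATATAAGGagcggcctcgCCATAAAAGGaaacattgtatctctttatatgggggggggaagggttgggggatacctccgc
Elk3: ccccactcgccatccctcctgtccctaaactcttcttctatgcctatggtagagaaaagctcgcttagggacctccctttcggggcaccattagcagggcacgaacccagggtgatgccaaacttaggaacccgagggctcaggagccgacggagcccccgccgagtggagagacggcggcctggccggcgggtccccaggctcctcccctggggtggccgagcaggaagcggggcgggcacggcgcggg

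The Srf window held 2 CArG boxes, at 82 to 73 and 62 to 53 bases before the start, and 1 CCGGAA at 122 to 117 bases before it. Of 32536 windows of this length, 1.48% held a CArG box, 0.0184% held 2 or more, and 12.1% held CCGGAA. The Elk3 window held none of these motifs, and TGTGGT or TGCGGT stood in 18.5% of windows. A looser form, TGNGGT, was searched first and was then replaced: it matched the Elk3 window once, as TGGGGT, and 40.2% of all windows. The Elk1 window held no match to any of them, and the 3 Elk4 windows held 1 CCGGAA and 1 TGNGGT match between them.

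Library totals ranged from 14442251 to 23641552 counts, so that 3 counts, taken as the floor, equal 0.127 to 0.208 CPM. The level of Runx1 itself, in CPM with SD and n = 3, was 84.0 ± 2.48 (Cre-only) and 99.9 ± 3.75 (Runx1 c-k/o) at rest, and 36.8 ± 1.82 and 64.1 ± 14.7 at 3 h. The genotype difference of Runx1 was 0.25 at rest (adjusted p = 0.548) and 0.80 at 3 h (adjusted p = 0.00769, edgeR). Runx1 counts cover all exons, so they do not check the deletion of exon 4. The paper reported, from western blots, that RUNX1 protein was absent from mature resting B cells of the Runx1 c-k/o mice. The Runx1 c-k/o libraries varied more, and their root mean square deviation from the group mean over all tested genes was 0.218 to 0.412 on the log2 scale against 0.181 to 0.223 in Cre-only libraries. The summed level of 9 B cell markers was 16209 to 16974 CPM (Cre-only) and 17537 to 19299 CPM (Runx1 c-k/o) at rest, without overlap, and 7415 to 8588 CPM in all samples at 3 h. Of other cell types, the 9 myeloid markers summed to 227 to 436 CPM at rest and 24.9 to 54.8 CPM at 3 h, led by Csf1r. The 10 genes listed as endothelial and stromal markers summed to 277 to 309 CPM and 11.3 to 29.4 CPM, nearly all of it Pecam1. Only 3 of these 10 passed the filter, so this sum mainly follows Pecam1 and is not a measure of such cells. The 9 T cell markers summed to 32.0 to 43.7 CPM at rest and 65.0 to 86.1 CPM at 3 h. The 5 plasma cell markers summed to 1541 to 1679 CPM and 2016 to 2389 CPM. On activation 1 of 4 tested T cell markers and 2 of 5 plasma cell markers were called higher on average. Called lower were 1 and 3 of them, against 41.7% and 40.5% of all tested genes called higher and lower (edgeR). The 7 erythroid markers summed to 50.6 to 357 CPM (Cre-only) and 329 to 547 CPM (Runx1 c-k/o) at rest, and to 18.4 to 191 CPM and 153 to 269 CPM at 3 h, with list medians of 0.75 and 0.77 for the genotype difference at these times and 0 markers called (edgeR, 0 with an unadjusted p under 0.05). No marker was at 0 in a whole group, and in these bulk samples fewer cells of a type and less RNA per cell cannot be told apart.

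Elk3, the TCF known as a repressor, had unlike genotype differences at the 2 times. Cre-only samples had normalized levels of 62.4, 65.1 and 64.8 CPM at rest, and 18.1, 17.9 and 18.3 CPM at 3 h. In Runx1 c-k/o cells it was 43.6, 41.1 and 46.0 CPM at rest and 22.9, 26.8 and 23.9 CPM at 3 h. Every Runx1 c-k/o sample was thus below every Cre-only sample at rest and above every one at 3 h.

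The fitted genotype difference (Runx1 c-k/o minus Cre-only) of Elk3 was -0.56 at rest and 0.44 at 3 h on the log2 scale, or 1.47-fold lower and 1.36-fold higher. Activation changed it by -1.82 (Cre-only cells) and -0.83 (Runx1 c-k/o cells), and the interaction, the genotype difference at 3 h minus that at rest, was 1.00. These values picked Elk3 and carry no test. As background, the genotypes did not overlap at rest in 23.7% of tested genes and at 3 h in 21.8%, and 0.266% were lower at rest and higher at 3 h in this way.

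**Figure D1:**
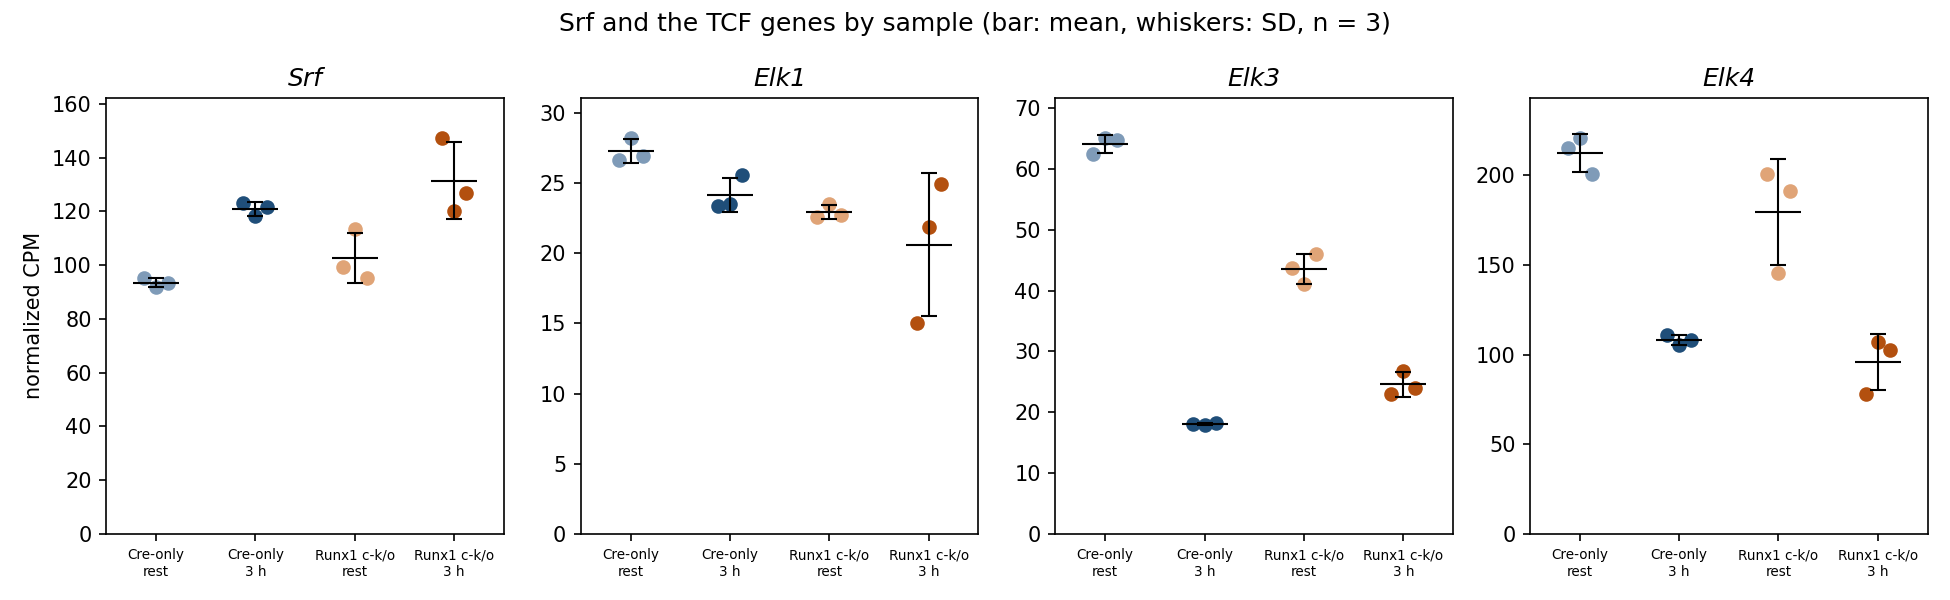
Normalized CPM (vertical axes, from 0) of Srf, Elk1, Elk3 and Elk4 in each of the 12 samples, by group; points are samples, the long bar is the mean and whiskers are the SD of 3 samples. Elk3 in Runx1 c-k/o cells lies below Cre-only at rest (41.1 to 46.0 against 62.4 to 65.1 CPM) and above it at 3 h (22.9 to 26.8 against 17.9 to 18.3 CPM).

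Averaged over both genotypes, the activation change of Elk3 was -1.33 on the log2 scale, a fall that passed the test (SE 0.0605, adjusted p = 1.16e-09, edgeR), or 2.51-fold. This comparison called 82.2% of all tested genes in either direction and 40.5% of all tested genes as lower at 3 h, so a call in it is common. The summed myeloid markers and the Pecam1-led endothelial sum fell over the same interval, whereas the T cell and plasma cell sums rose. The part of any of these in the Elk3 level was not tested. At rest the marker sums of the genotypes overlapped for myeloid cells (261 to 316 CPM in Cre-only against 227 to 436 CPM), whereas the B cell sums given above did not, and the part of either in the genotype difference of Elk3 was not tested. At 3 h, replicate 2 of Runx1 c-k/o had the highest Elk3 level of its group and also the highest myeloid (54.8 CPM) and Pecam1-led (29.4 CPM) sums. Without that sample the genotype difference of Elk3 at 3 h was 0.37.

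Cdk17 is a kinase gene whose exons overlap those of Elk3. At rest its level was 110 ± 3.21 CPM (Cre-only) and 88.8 ± 6.34 CPM (Runx1 c-k/o), and at 3 h it was 129 ± 2.97 and 110 ± 13.3 CPM (SD, n = 3). The genotype difference of Cdk17 was -0.30 at rest (adjusted p = 0.189) and -0.23 at 3 h (adjusted p = 0.253, edgeR), so its fitted value was below 0 at both times.

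**Figure D2:**
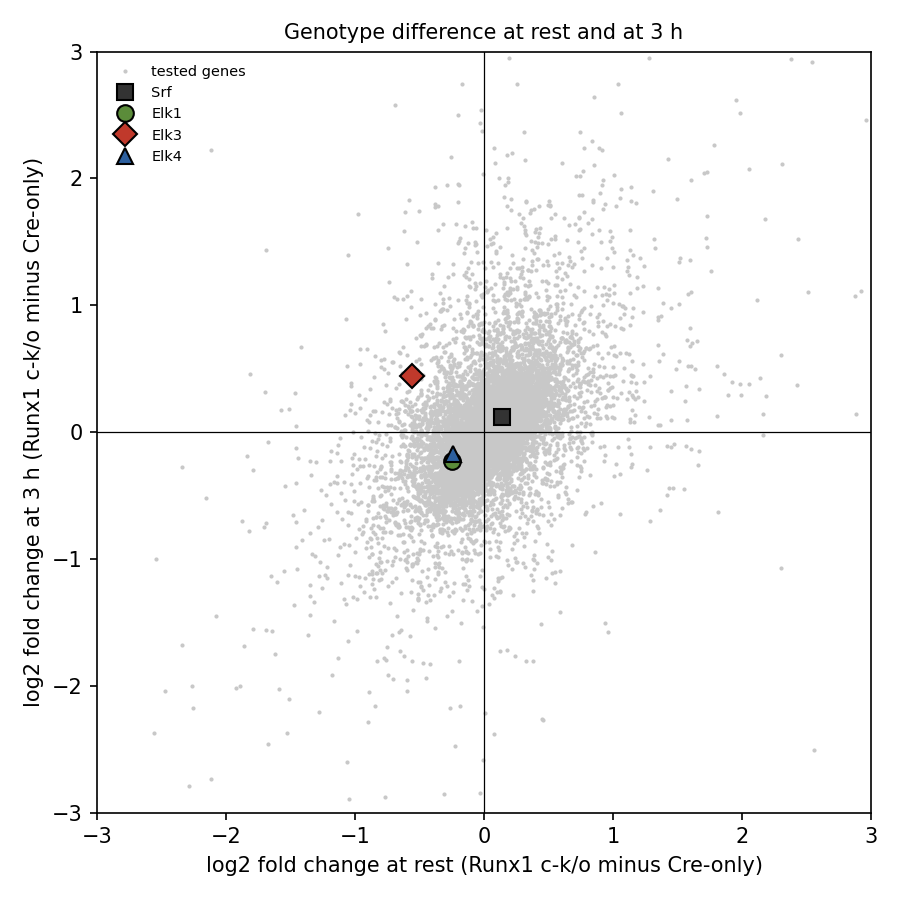
Genotype difference (Runx1 c-k/o minus Cre-only, log2) at rest on the horizontal axis and at 3 h on the vertical axis for the tested genes; 54 genes beyond 3 on either axis are not shown. Grey points are tested genes. Elk3 (-0.56 and 0.44) lies in the upper left quadrant, Srf (0.14 and 0.12) in the upper right, and Elk1 (-0.25 and -0.23) and Elk4 (-0.24 and -0.17) in the lower left.

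Elk4 was the most abundant TCF. Cre-only samples had 215, 221 and 201 CPM at rest, and 111, 106 and 108 CPM at 3 h. In Runx1 c-k/o samples it measured 201, 146 and 192 CPM at rest and 78.3, 107 and 103 CPM at 3 h. All 3-h samples were below all resting samples of their genotype, as in 40.6% (Cre-only) and 36.3% (Runx1 c-k/o) of tested genes, and the genotypes overlapped at both times.

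Elk4 fell on activation, with a change of -0.94 (SE 0.0953, adjusted p = 1.21e-06) averaged over genotypes, -0.97 for Cre-only cells (adjusted p = 3.07e-05) and -0.90 for Runx1 c-k/o cells (adjusted p = 6.13e-05, edgeR). With 1 factor of unwanted variation (RUVs) in edgeR these 3 changes were -0.41, -0.46 and -0.37, and each was still called. Within genotypes the activation comparisons called 75% and 74.3% of tested genes in either direction, and 36.4% and 36.6% of tested genes as lower. The genotype difference of Elk4 was -0.24 at rest (95% interval -0.50 to 0.02, adjusted p = 0.551) and -0.17 at 3 h (-0.44 to 0.09, adjusted p = 0.514). Its interaction was 0.07 (95% interval -0.30 to 0.44).

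Elk1, the first described TCF, was the least abundant per length in 3 of the 4 groups. Cre-only samples had 26.6, 28.2 and 27.0 CPM at rest, and 23.3, 23.5 and 25.5 CPM at 3 h. In Runx1 c-k/o samples it was 22.6, 23.5 and 22.8 CPM at rest and 15.0, 21.9 and 25.0 CPM at 3 h. The resting Runx1 c-k/o samples were all below the resting Cre-only ones, as in 11.6% of tested genes, and at 3 h the genotypes overlapped.

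No comparison called Elk1. Its average activation change was -0.17 (95% interval -0.37 to 0.03, adjusted p = 0.150), and its genotype difference was -0.25 at rest (-0.53 to 0.03, adjusted p = 0.582) and -0.23 at 3 h (-0.51 to 0.06, adjusted p = 0.440, edgeR). The background was 1.49% of tested genes called at rest and 2.77% at 3 h. The average activation change was called under 3 other settings, at -0.23 to -0.30, and also without replicate 3 of 3-h Runx1 c-k/o, at -0.24. It was positive and not called with a factor of unwanted variation.

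Srf was the one member with a higher level after activation. Cre-only samples had 95.1, 91.8 and 93.2 CPM at rest, and 123, 118 and 122 CPM at 3 h. In Runx1 c-k/o samples it measured 99.3, 113 and 95.2 CPM at rest and 147, 120 and 127 CPM at 3 h. Every 3-h sample was above every resting sample of its genotype, as in 43.8% (Cre-only) and 36.5% (Runx1 c-k/o) of tested genes. At rest the Runx1 c-k/o samples were all above the Cre-only ones, by a narrow margin and as in 12% of tested genes, and at 3 h the genotypes overlapped.

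Srf rose by 0.37 averaged over genotypes (SE 0.0656, adjusted p = 0.000203), or 1.29-fold, by 0.37 for Cre-only cells (adjusted p = 0.00279) and by 0.36 for Runx1 c-k/o cells (adjusted p = 0.00385, edgeR). Of all tested genes, 41.7% were called higher on average, 38.6% and 37.7% within these genotypes, and 61.6% had a lower fold change than Srf. The rise was not called with 1 factor of unwanted variation, at 0.061 in edgeR and -0.025 in DESeq2. That factor was lower in all 3-h libraries than in all resting ones and also differed within groups, and the fits with it still called the fall of Elk3 and Elk4. The genotype difference of Srf was 0.14 at rest (95% interval -0.05 to 0.32, adjusted p = 0.637) and 0.12 at 3 h (-0.06 to 0.30, adjusted p = 0.512), and its interaction was -0.02 (-0.27 to 0.24).

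**Figure D3:**
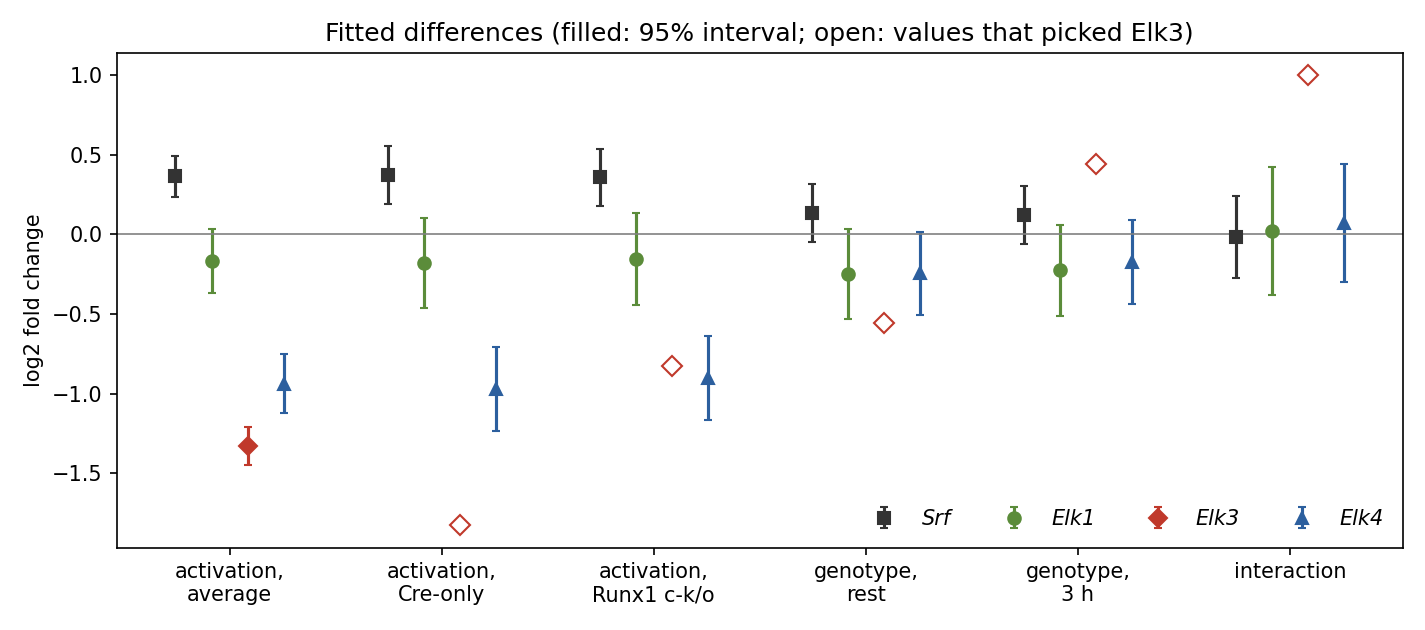
Fitted log2 fold changes (vertical axis) of the 4 genes in the 6 comparisons; filled symbols carry 95% intervals, and open symbols are the Elk3 values that picked it, without intervals. On average Srf lies above 0 at 0.37, and Elk3 and Elk4 lie below it at -1.33 and -0.94.

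Levels between genes were compared per length, as normalized CPM per kb of exon. In resting Cre-only cells the order was Elk4 at 38.7 ± 1.91, Srf at 22.8 ± 0.403, Elk3 at 14.1 ± 0.326 and Elk1 at 5.07 ± 0.157 (SD, n = 3). At 3 h Srf led at 29.6 ± 0.637, followed by Elk4 at 19.7 ± 0.475, Elk1 at 4.49 ± 0.227 and Elk3 at 3.98 ± 0.0421. No neighbors in these orders overlapped among samples.

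In resting Runx1 c-k/o cells the order was the same, with Elk4 at 32.7 ± 5.40 and Srf at 25.1 ± 2.32 overlapping, Elk3 at 9.58 ± 0.536 and Elk1 at 4.27 ± 0.0915. At 3 h it was Srf at 32.1 ± 3.46, Elk4 at 17.5 ± 2.83, Elk3 at 5.40 ± 0.448 and Elk1 at 3.83 ± 0.948, so Elk3 was above Elk1, and in Cre-only cells it was below it. These orders depend on the length used. Per longest transcript the 3-h Cre-only means were 30.8 for Elk4 and 29.6 for Srf, so Elk4 led there, with overlapping samples. The 3-h Runx1 c-k/o means were then 5.83 for Elk3 and 5.81 for Elk1, nearly equal.

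Elk3 made up 24.4% ± 0.984 of the summed per-length level of the 3 TCFs in resting Cre-only cells and 14.1% ± 0.170 at 3 h. In Runx1 c-k/o cells its share was 20.7% ± 1.80 at rest and 20.4% ± 2.24 at 3 h (SD, n = 3). The share of Elk4 was 66.9% (Cre-only) and 70.0% (Runx1 c-k/o) at rest, and 70.0% and 65.4% at 3 h. That of Elk1 was 8.76% and 9.28% at rest, and 15.9% and 14.2% at 3 h. These shares restate the levels that picked Elk3 and were not tested. They use the length of all exons together, depend on that choice, and were not computed per longest transcript.

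**Figure D4:**
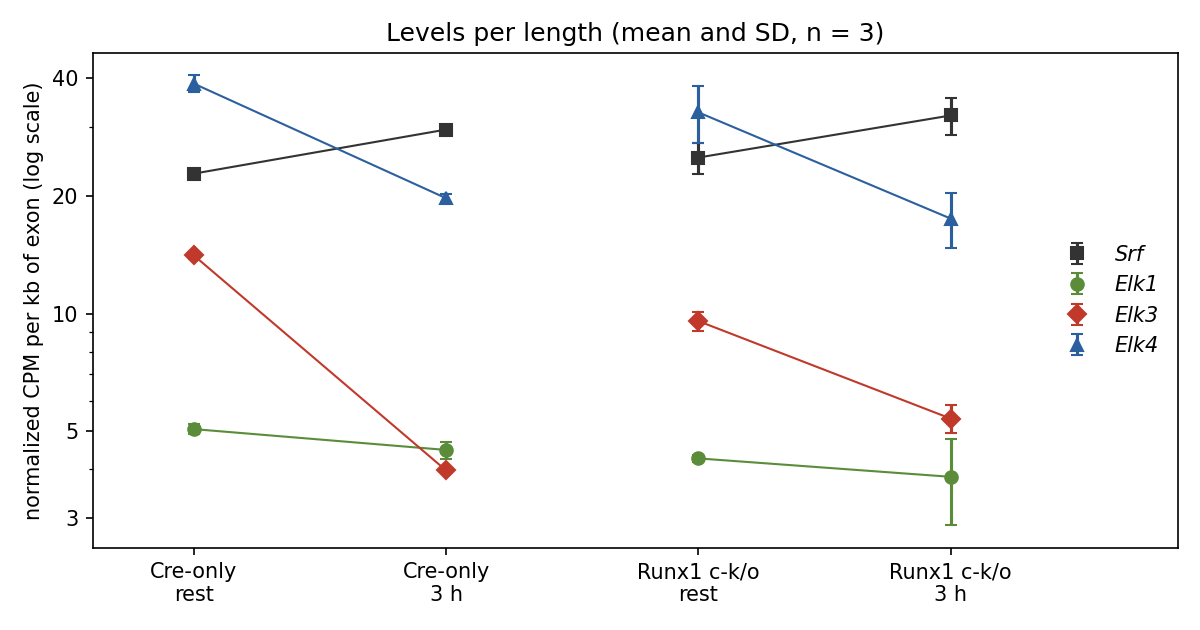
Normalized CPM per kb of exon (vertical log axis) of the 4 genes by group; symbols are means and whiskers SDs of 3 samples, and lines join rest and 3 h of one genotype. Elk4 is highest at rest and Srf at 3 h, and the Elk3 line crosses that of Elk1 in Cre-only cells (14.1 to 3.98 against 5.07 to 4.49).

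Over the 12 samples, Srf and Elk4 had the strongest correlation of log2 CPM among the members, at a Pearson r of -0.98, and it was -0.91 for deviations from the group means. For deviations, 793 genes had r over 0.9 with Srf and 365 with Elk4. In replicate 1 of 3-h Runx1 c-k/o Srf was highest and Elk4 lowest in the group, at 147 and 78.3 CPM. The same held for replicate 2 of resting Runx1 c-k/o, at 113 and 146 CPM. These libraries also deviated most in their groups over all tested genes, by 0.412 and 0.327. Elk3 had r = 0.91 with Elk4 and -0.86 with Srf. The genes most like Elk3 were Apbb1ip (r = 0.99), Slc26a10 (r = 0.99) and Gramd1a (r = 0.98). Those most like Srf were Aarsd1, Sap18 and Yif1b, those most like Elk4 were Lrba, Smchd1 and Ssh2, and those most like Elk1 included Uevld and Slc6a6. The samples share the shift between rest and 3 h, and 1826 genes had r over 0.9 with Elk3, 2519 with Srf, 2366 with Elk4 and 26 with Elk1.

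Both tested MRTF genes fell on activation, where 40.5% of all tested genes were called as lower on average. Mrtfa, which couples actin to SRF, measured 102, 95.7 and 103 CPM at rest and 35.6, 32.5 and 34.0 CPM at 3 h in Cre-only samples, and fell by 1.69 on average (adjusted p = 2.24e-09). Mrtfb fell by 0.74 (adjusted p = 0.000536, edgeR). Neither was called between genotypes, against 1.49% of tested genes at rest and 2.77% at 3 h. Myocd, the muscle cofactor, had 0 counts, and Mamstr and Fhl2 had too few to be tested.

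Of 22 early response targets of SRF and the TCFs, 20 were tested, Srf among them. On activation 5 rose and 12 fell on average, against 41.7% and 40.5% of all tested genes, with a median of -0.58 against 0.01 over all tested genes. Fosl1 and Egr2 rose by 3.42 and 3.39, Dusp4 by 1.14 and Egr3 by 0.39, whereas Fosb, Fos, Dusp1 and Klf6 fell, with changes of -7.54, -6.70, -5.53 and -3.64. In Cre-only cells Fosb and Fos averaged 2056 and 849 CPM at rest, and 2.87 and 3.22 CPM at 3 h. Samples were taken at 0 h and 3 h only, so a brief rise between these times would not be seen. Egr2 and Egr3 are zinc-finger transcription factors, Dusp1 and Dusp4 are phosphatases of MAP kinases, and Fos, Fosb and Fosl1 are subunits of AP-1.

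At 3 h, 4 of the 20 targets were higher in Runx1 c-k/o cells and none were lower, against 2.77% of tested genes called, 1.47% as higher and 1.3% as lower. Trib1, a pseudokinase gene, had 26.2, 28.8 and 28.8 CPM (Cre-only) and 45.4, 56.3 and 49.4 CPM (Runx1 c-k/o), a difference of 0.85 (adjusted p = 0.00029). Junb differed by 0.84 (adjusted p = 0.0189), Dusp5 by 0.76 (adjusted p = 0.0301) and Nr4a1 by 0.69 (adjusted p = 0.0303, edgeR). In 13 of the 20 the 3 Runx1 c-k/o samples all lay above the Cre-only samples and in 0 below, against 9.5% and 12.3% of all tested genes, and the list median was 0.46 against 0.01. This list was chosen with earlier results of these data known. The paper had already reported Trib1 and Egr2 as higher in the knockout cells. The shares of all tested genes set beside the list, at rest and after activation, are thus background and not a test of it. No member of the list was called in the interaction (edgeR), against 0.0813% of tested genes, and 9 had an unadjusted p under 0.05 in it, against 5.07%.

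The number of called targets at 3 h depended on single samples. It was 1, Trib1, without replicate 1 or 3 of 3-h Cre-only or replicate 2 of 3-h Runx1 c-k/o, and 8 without replicate 3 of 3-h Runx1 c-k/o. Replicate 2 of 3-h Runx1 c-k/o had 123 CPM of Fosb against 7.21 and 4.24 in the others, 45.1 CPM of Fos against 5.60 and 3.89, and 28.0 CPM of Dusp1 against 6.89 and 5.18. It was also the 3-h sample with the highest myeloid and Pecam1-led marker sums. In resting Runx1 c-k/o cells Fosb, Fos and Dusp1 averaged 2147, 739 and 353 CPM, and those marker sums were higher as well. The source of the higher values in this sample was not tested. Fosb, Fos and Dusp1 were not called at 3 h. At rest 1 target was called, Egr2, which was higher in Runx1 c-k/o cells by 1.29 (adjusted p = 0.0222, edgeR), against 0.731% of tested genes called higher. Egr2 had 42.4, 46.6 and 44.6 CPM (Cre-only) and 74.6, 170 and 81.2 CPM (Runx1 c-k/o), and it was not called when any resting Cre-only sample was left out.

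**Figure D5:**
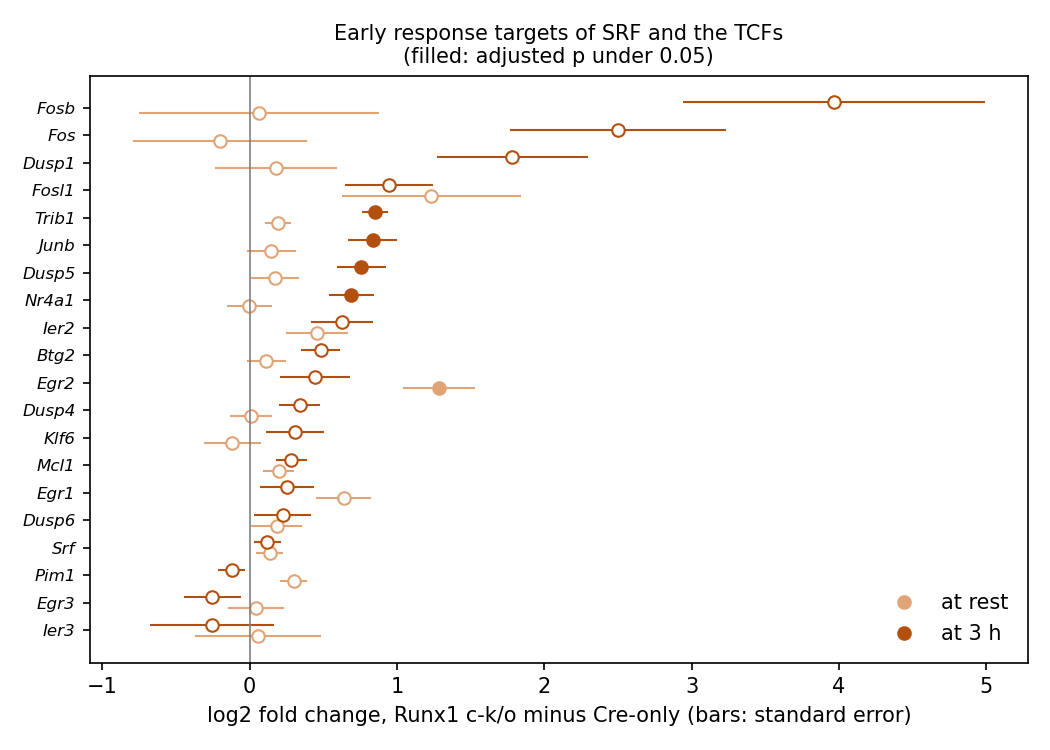
Genotype difference (horizontal axis, log2, Runx1 c-k/o minus Cre-only) of the 20 tested early response targets at rest (light) and at 3 h (dark); bars are standard errors and filled points have an adjusted p under 0.05. Trib1, Junb, Dusp5 and Nr4a1 are filled at 3 h, between 0.69 and 0.85, and Egr2 is filled at rest, at 1.29.

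Among 19 tested MRTF-SRF targets of the actin cytoskeleton, 4 rose and 10 fell on activation averaged over genotypes, against 41.7% and 40.5% of all tested genes. Within Cre-only cells 1 rose and 10 fell, and within Runx1 c-k/o cells 2 rose and 10 fell. Those that fell were led by Lima1 at -2.60, Flna (filamin A) at -2.12, Cnn2 (calponin 2) at -1.93 and Zyx (zyxin) at -1.85, whereas Pfn1 (profilin 1), Cfl1 (cofilin 1), Actg1 and Actb (cytoplasmic actins) rose by 0.39, 0.30, 0.26 and 0.22. With DESeq2 size factors 2 rose, Actg1 and Pfn1, and with 1 RUVs factor in edgeR Pfn1 and Cfl1 were called as lower. Between genotypes 0 of these targets were called by edgeR at rest or at 3 h, and 1 and 4 of them had an unadjusted p under 0.05 at these times, against 11.1% and 16.2% of tested genes.

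Of the 24 genes from Ras to the MAP kinases, 7 rose and 10 fell on average, against 41.7% and 40.5% of tested genes. Rasgrp2, Rasgrp3 and Rasgrp1, which encode exchange factors that load Ras or Rap with GTP, fell, at -4.73, -3.52 and -3.49, and so did the kinase gene Rps6ka5, at -3.09. Hras and Nras, small GTPases of the Ras family, rose by 1.17 and 0.80. Between genotypes 1 was called, Rps6ka1 (RSK1), at 3 h and by 0.38 (adjusted p = 0.0366, edgeR), against 2.77% of tested genes.

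Of 24 other ETS factor genes, 16 were tested, and 3 rose and 12 fell on activation, against 41.7% and 40.5% of all tested genes. Spic, Ets1, Etv1 and Fli1 fell most, at -3.47, -2.75, -2.50 and -1.94, whereas Erf, an ETS repressor, rose by 1.17 and Gabpb1 and Gabpa, the subunits of GABP, by 1.15 and 0.76. Of 10 corepressors and coactivators of the TCFs, 5 rose, led by the deacetylase gene Hdac2 at 1.56, Med23 at 0.67, Pias2 at 0.54 and Ctbp1 at 0.38, and 3 fell, Ep300 at -1.03, Crebbp at -0.66 and Hdac1 at -0.41. In both lists 0 genes were called between genotypes by edgeR, and 0 and 6 ETS genes and 1 and 1 coregulators had an unadjusted p under 0.05 at rest and at 3 h, against 11.1% and 16.2% of tested genes.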

How the data were processed

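Gene counts of poly(A) RNA from 12 samples were used. Per the labels and the methods of the study, the authors prepared stranded libraries, aligned paired reads to mm9 with TopHat2 2.0.11, and deposited raw counts per gene made with featureCounts, without normalization. The strand setting is not given in the sources used here, and 0 spike-in entries were in the table, so levels are relative to each library's total.

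Genes were filtered with filterByExpr of edgeR 4.0.16 (minimum 10 counts), leaving 13538, and fitted with TMM normalization, 1 term per group over all 12 samples and the robust quasi-likelihood F test in R 4.3.3, p-values being adjusted by Benjamini-Hochberg across the tested genes, with a threshold of 0.05. Normalized CPM uses the TMM library sizes, and floors cover counting error only. With 3 samples against 3 an exact permutation test cannot go below 0.1. The paper calls the 3 samples of each group biological replicates. Nothing in the labels says that they were separate mice, so p-values measure the spread between these samples. Positions came from the GENCODE annotation of mm9. Python 3.11.15 with pandas 2.3.3 made the tables.

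The members, the gene lists and the rule for naming genes were chosen with earlier results of these data known. Named list genes are, by that rule, the up to 4 called genes in each direction with the largest fold change, and genes most like a member are the 3 with the highest Pearson r. Some genes that the rule selects are not reported here. Other values were chosen after they were seen, as were the narrower Runx motif and the counts of early response targets without single samples.

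Alternatives were DESeq2 1.42.0 size factors, no filter, 10 counts in every sample, the DESeq2 Wald test, 1 RUVs factor in edgeR and DESeq2, replicate blocks, fits of the 2 groups alone, omission of each sample in turn, and the longest transcript for length. Replicate numbers come from the titles. In Cre-only cells, deviations from the group means of resting and 3-h samples sharing a number correlated at 0.275, 0.176 and 0.144. These numbers may thus mark pairs, but the fit described above had no pairing term. Only the replicate blocks used the numbers. The fits were tested on simulated data.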

Additional observations from a re-analysis of the deposited data

Results flagged for a closer look

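Elk3 was marked because every Runx1 c-k/o sample lay below the Cre-only samples at rest and above them at 3 h. The genotype difference at 3 h minus that at rest was 1.00 on the log2 scale, from -0.56 and 0.44. This difference was not tested here, since Elk3 was picked for it.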

How the results depend on the processing

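The average fall of Elk3 and Elk4 kept its direction and its call under all 20 alternatives, from -1.46 to -1.14 for Elk3 and from -1.07 to -0.41 for Elk4. With 1 RUVs factor the rise of Srf was not called, at 0.061 on average, 0.076 for Cre-only cells and 0.045 for Runx1 c-k/o cells in edgeR, and its sign turned in DESeq2, at -0.025, -0.031 and -0.020. The factor was between -0.27 and 0.33 in resting and between -1.76 and -0.62 in 3-h libraries. Elk1 was called as lower on average with DESeq2 size factors (-0.23), 10 counts in every sample (-0.30) and the DESeq2 Wald test (-0.23), and in Cre-only cells with 10 counts in every sample (-0.34) and only the 2 groups compared (-0.25). The strict filter moved the median of all shared genes by -0.13 on average. With single samples left out the average Elk1 change ranged from -0.24 to -0.11, being called without replicate 3 of 3-h Runx1 c-k/o, and in Cre-only cells from -0.23 to -0.15, being called without replicate 1 of that group.

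The activation change of Elk3 moved in Cre-only cells to -1.91 with DESeq2 size factors and with the Wald test, -1.98 with 10 counts in every sample, and -1.64 and -1.74 with the RUVs factor in edgeR and DESeq2. In Runx1 c-k/o cells it moved to -0.93, -0.64 and -0.70 under the last 3. Its interaction ranged from 0.93 to 1.08 with single samples left out.

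Genes called numbered 202 at rest, 375 at 3 h and 11 in the interaction. With the Wald test, the RUVs factor in edgeR and that in DESeq2 they numbered 378, 524 and 611 at rest, 709, 1036 and 1230 at 3 h, and 83, 142 and 253 in the interaction. With only the 2 groups compared 158 were called at 3 h. With single samples left out they ranged from 81 to 386, 180 to 617 and 4 to 31. Early response targets called at rest numbered 3, 2 and 2 under the same 3 settings, 0 with only the 2 groups compared, and 0 to 2 with single samples left out. At 3 h they numbered 12 with the RUVs factor in DESeq2, 1 with only the 2 groups compared, and 1 to 8 with single samples left out.

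The replicate block changed no call among the member values that were tested. With the replicate block within genotype 4 genes were called in the interaction, the interaction of Elk3, given with no test, was 1.00, and the average change of Srf was 0.37. Same-numbered Runx1 c-k/o samples correlated at -0.254, -0.264 and 0.254, so their numbers may not mark pairs, although the block within genotype paired them. Causes of these changes were not tested, and per longest transcript all Elk1 and Elk4 levels per kb were higher.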
